A study of Mus musculus with 2 samples.

Results

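The miR-34 and miR-449 family comprises 6 microRNA (miRNA) genes of the mouse at 3 loci: Mir34a alone, the Mir34b and Mir34c cluster, and the Mir449a, Mir449b and Mir449c cluster. Its members were taken by gene symbol in GENCODE M21, by a rule that does not use read counts, and all 6 were found among the 2202 miRNA genes of the deposited tables. Small RNA under 30 nt was sequenced from left cerebral cortex of B6CASTF1/J mice, a first-generation hybrid of C57BL/6J and CAST/EiJ, at an age of 18 to 20 months. There was 1 group of 2 libraries, which the labels number as biological replicates 1 and 2. Their tissue records are separate but name a single donor record, so it cannot be told from the labels whether 1 animal or more gave the tissue. The exact binomial p-values below measure counting noise alone. Those of edgeR's exact test include a spread between the libraries that may partly be technical. The labels carry no treatment and no engineered allele, and they give the sex as male in one field and as female in another.

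A miRNA is cut from a hairpin and guides the silencing of transcripts that pair with its seed, bases 2 to 8 counted from its 5′ end. miRNAs that share a seed can therefore act on overlapping sets of transcripts even when they come from different loci. Mir34a is a direct transcriptional target of p53 and holds back cell-cycle and survival genes such as Cdk6 and Bcl2. That does not set it apart from the other loci, whose response to p53 was not tested. Mir34b/Mir34c and Mir449a/b/c are known from multiciliated cells, which in the brain are the ependyma and the choroid plexus epithelium, and there they act on Cp110 and on the Notch pathway during the making of cilia.

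The mature sequences are shown because the seed they share defines the family. They are RefSeq sequences on GRCm38.p6, with the seed in capitals. The table matched 5 of the 6 genes, and 4 of these with a 5′ arm, which are printed here.
miR-34a-5p: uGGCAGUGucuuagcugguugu
miR-34b-5p: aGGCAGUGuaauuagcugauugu
miR-449a-5p: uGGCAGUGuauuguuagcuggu
miR-449c-5p: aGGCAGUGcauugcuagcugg
All 4 carried the seed GGCAGUG. Among the 1738 mature sequences of the table, these 4 were the ones with that seed. Outside the seed they were not identical. They were compared base by base from the 5′ end, with the seed included and without gaps. So counted, miR-34a-5p matched miR-449a-5p at 15 of 22 positions, miR-449c-5p at 12 of 21 and miR-34b-5p at 11 of 22. Among the 4, miR-449a-5p and miR-449c-5p matched at the most positions, 18 of 21. An inserted or missing base shifts all later positions, so these counts do not measure divergence outside the seed. The longest stretch shared by any pair was 9 bases. The 5′ arm of Mir34c and both arms of Mir449b were absent from the table and are named only. The count of 4 leaves them out and does not show that they lack the seed.

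The 3′ arms divide the family differently, since the Mir34b and Mir34c arms share a seed that the Mir34a and Mir449 arms do not have.
miR-34b-3p: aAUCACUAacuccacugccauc
miR-34c-3p: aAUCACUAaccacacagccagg
miR-34a-3p: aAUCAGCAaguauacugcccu
miR-449a-3p: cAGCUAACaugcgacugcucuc
miR-449c-3p: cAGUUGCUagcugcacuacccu
The seed AUCACUA was found in 2 mature sequences of the table, those of Mir34b and Mir34c, which matched at 17 of 22 positions. The deposited counts are per hairpin and do not separate arms, so each level below is the sum of whatever arms were read.

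The loci lie on 3 chromosomes of mm10. Mir34a (ENSMUSG00000065493.1) is at chr4:150068454-150068555 on the plus strand, and its last 17 bases overlap an exon of Gm37795, a transcript of unsettled coding status on the same strand. Mir34b (ENSMUSG00000065492.1, chr9:51103562-51103645) and Mir34c (ENSMUSG00000065587.1, chr9:51103034-51103110) are 451 bases apart on the minus strand. Both fall within an intron of Btg4, which runs on the plus strand. The Mir449 genes are on the plus strand in an intron of Cdc20b, a gene of multiciliated cells that runs in the same direction. Mir449c (ENSMUSG00000076146.1) lies at chr13:113035983-113036091, followed after 1327 bases by Mir449b (ENSMUSG00000078027.1, chr13:113037419-113037498), and after a further 35 bases by Mir449a (ENSMUSG00000065575.1, chr13:113037534-113037624).

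Replicate 1 held 2381663 reads on the gene's strand of a miRNA gene and replicate 2 held 4436398. Levels are given as CPM, the reads of a gene scaled to 1000000 such reads. A read in at least 1 library was seen at 5 of the 6 members, against 33.1% of all 2202 genes. Over the 472 genes with at least 10 reads in total, chi-square was 437 per degree of freedom, so the replicates were not repeats of 1 library within counting error. The labelled tissue was checked against 8 miRNA genes of cortical neurons, which summed to 90297 CPM in replicate 1 and 71445 CPM in replicate 2. Mir132 led them and set that direction, with 69646 CPM in replicate 1 and 43349 CPM in replicate 2, while Mir128-1 came next at 14354 and 19064 CPM. Of the 5 tested, 1 was higher in replicate 1 and 4 in replicate 2, with a median log2 ratio of -0.38. All 5 passed the exact binomial test described below, against 52.1% of all tested genes. In edgeR's exact test, also described below, 0 of the 5 passed, against 0.424% of all tested genes. The 3 genes of miR-124, a main neuronal miRNA, had at most 4 reads in either library. Reads that map to several places, 35.6% of all reads in replicate 1 and 44.8% in replicate 2, are counted under no gene. These counts therefore give no level for a miRNA with several gene copies, which here are miR-124, miR-128 and miR-138. This limit holds for every gene of the list but Mir132, and so for the sums and directions above.

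Mir34a carried most of the family's reads in this cortex. It had 7259 reads in replicate 1 and 14090 in replicate 2, equal to 3048 and 3176 CPM. The libraries lay close together, with a mean of 3112 ± 90.6 CPM (SD, n = 2), and Mir34a ranked 49th of the 2202 genes by mean level. The 95% exact Poisson intervals cover the counting error of each library alone. They are too narrow where reads copied by PCR are not independent molecules. For Mir34a these intervals were 2978 to 3119 CPM in replicate 1 and 3124 to 3229 CPM in replicate 2. They came close but did not overlap, with replicate 2 slightly higher. In bulk tissue a level does not tell fewer cells of a type from less RNA per cell, and this holds for all levels given here.

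Mir34c, the main product of the chromosome 9 cluster, was the second most abundant member. It had 877 reads in replicate 1 and 537 in replicate 2, or 368 CPM (344 to 393) and 121 CPM (111 to 132). The intervals did not overlap, and replicate 1 was the high library. Its mean of 245 ± 175 CPM (SD, n = 2) placed it 158th by level.

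Mir34b, its cluster partner, was far lower, with 32 reads in replicate 1 and 33 in replicate 2. These equal 13.4 CPM (9.19 to 19.0) and 7.44 CPM (5.12 to 10.4), a mean of 10.4 ± 4.24 CPM (SD, n = 2) at rank 309. Mir34c exceeded Mir34b 27.4-fold in replicate 1, with a 95% exact binomial interval of 19.3 to 40.3. In replicate 2 it did so 16.3-fold (11.4 to 23.9), so the counting intervals of the ratio overlapped. The opposite strand of Mir34b had 2 reads in replicate 1 and 0 in replicate 2, below the limit that a count of 0 allows.

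Of the Mir449 cluster, Mir449a alone was read in both libraries. It had 79 reads in replicate 1 and 121 in replicate 2, or 33.2 CPM (26.3 to 41.3) and 27.3 CPM (22.6 to 32.6). The libraries overlapped within counting error, and the mean was 30.2 ± 4.17 CPM (SD, n = 2) at rank 249. Mir449c had 2 reads in replicate 1 and 0 in replicate 2. Mir449b had 0 reads in both libraries, which allows levels of up to 1.26 and 0.676 CPM in replicates 1 and 2 (3 reads per library).

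Although it lies 35 bases from Mir449b, Mir449a was at least 26.3-fold higher than that gene in replicate 1 and at least 40.3-fold higher in replicate 2, taking 3 reads as the limit for Mir449b in each library. Against the 2 reads of Mir449c it was 39.5-fold higher in replicate 1, where the exact binomial interval ran between 10.6 and 332. In replicate 2 it was at least 40.3-fold higher. The bounds given as at least rest on the limit of 3 reads and leave out the counting error of Mir449a. Reads that map to several places stand under no gene, so words shared with other genes were searched. No hairpin of the other 5 members shared a word of 18 bases with an annotated transcript of a gene that does not overlap it. Mir449b shared such words, within bases 35 to 58 of its 80-base hairpin, with 4 other genes, of which 0 were miRNA genes. The part of these words in its count was not tested. The search covered exact matches in annotated transcripts alone. It therefore cannot show whether reads of any member were lost to other places in the genome.

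**Figure D1:**
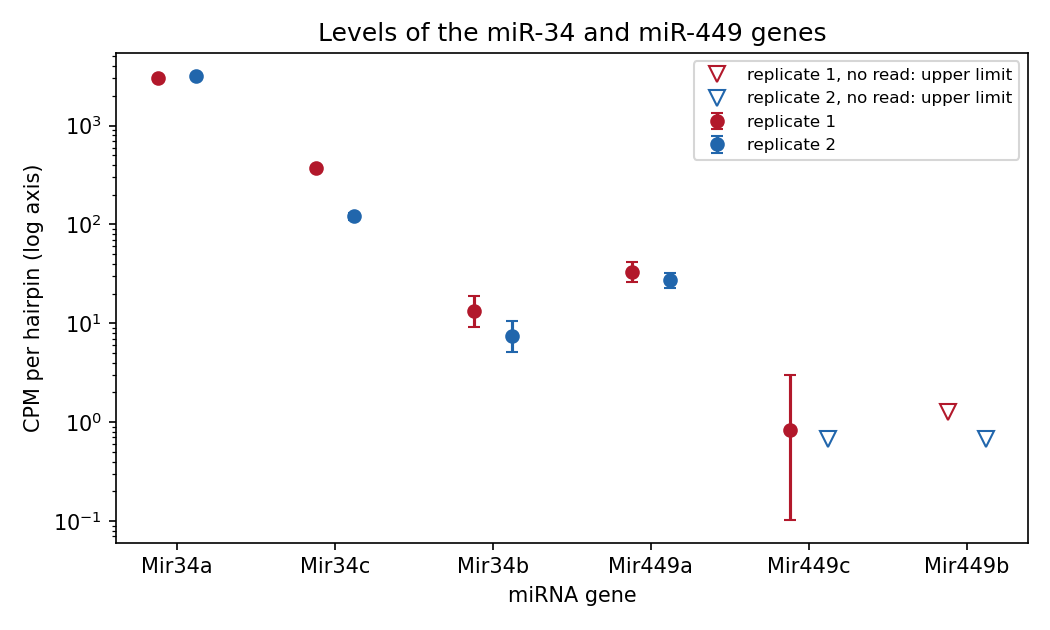
CPM per hairpin of the 6 genes (log axis), replicate 1 left of replicate 2 for each gene, with 95% exact Poisson intervals. Open triangles mark the upper limit where no read was counted. Mir34a sits above 3000 CPM in both libraries and Mir34c is the member whose libraries stand clearly apart.

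By level per hairpin the order was Mir34a, Mir34c, Mir449a, Mir34b, Mir449c and Mir449b. The ranges over the 2 libraries did not overlap between neighbours from Mir34a down to Mir449c, while Mir449c (0.840 CPM in replicate 1 and no read in replicate 2) and Mir449b were not distinguishable. No test between genes was made, because 2 libraries are too few for an exact test to pass a threshold of 0.05. Since a miRNA read is a mature arm and not a fragment of the hairpin, hairpin length need not scale the count. Per 100 bases of hairpin the order was the same, with mean levels of 3051 CPM for Mir34a, 318 CPM for Mir34c, 33.2 CPM for Mir449a and 12.4 CPM for Mir34b.

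The share of the family's reads that came from Mir34a was set against the Mir34b/Mir34c and Mir449 loci. It is a share by locus and does not divide the reads by p53 response or by cell type. Mir34a contributed 88.0% in replicate 1, with a 95% exact binomial interval of 87.3 to 88.7, and 95.3% (95.0 to 95.7) in replicate 2. The mean share was 91.7% ± 5.18 (SD, n = 2). Replicate 2 had the higher share, and the intervals were separate. Mir34b and Mir34c together contributed 11.0% (10.4 to 11.7) and 3.86% (3.55 to 4.18), so the chromosome 9 cluster was the high one in replicate 1. The Mir449 cluster gave 0.982% (0.781 to 1.22) and 0.819% (0.680 to 0.977), which overlap.

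In absolute terms the family summed to 8249 reads in replicate 1 and 14781 in replicate 2, or 3464 and 3332 CPM. This was 0.346% (0.339 to 0.354) and 0.333% (0.328 to 0.339) of the miRNA reads. Mir34a was 7.33-fold above the other 5 genes combined in replicate 1 (6.86 to 7.84) and 20.4-fold in replicate 2 (18.9 to 22.0). That difference went with the chromosome 9 cluster, which summed to 382 CPM in replicate 1 and 128 CPM in replicate 2. Mir34b and Mir34c together outnumbered the Mir449 cluster 11.2-fold in replicate 1 (8.93 to 14.3) and 4.71-fold in replicate 2 (3.87 to 5.78).

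**Figure D2:**
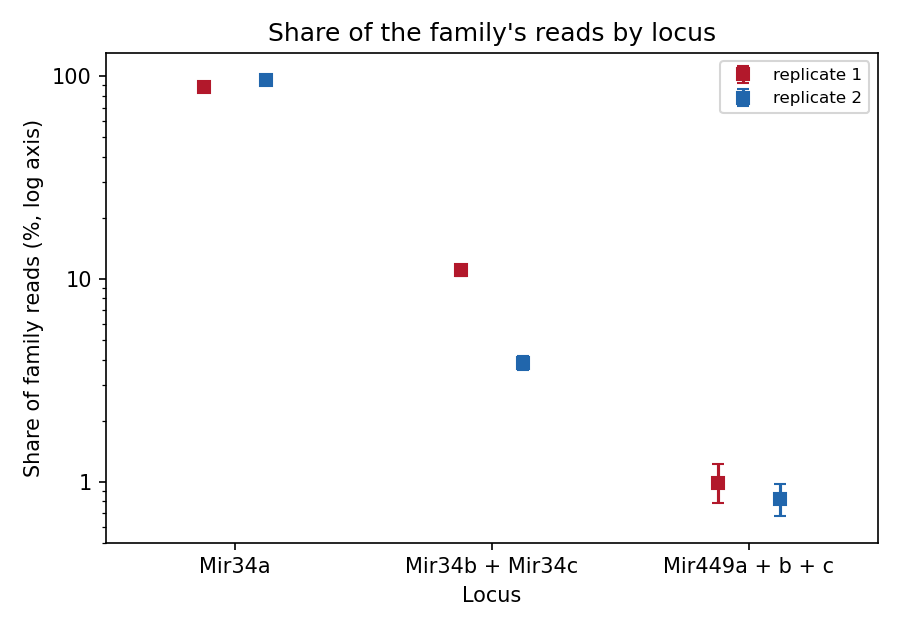
Share of the family's reads from each locus (percent, log axis), replicate 1 left of replicate 2, with 95% exact binomial intervals. Mir34a holds 88.0% and 95.3%, and the Mir34b and Mir34c cluster holds 11.0% and 3.86%.

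The libraries were then compared gene by gene, replicate 1 over replicate 2. The test was a two-sided exact binomial one per gene, adjusted by Benjamini-Hochberg over 472 genes, with library sizes corrected by TMM (a scaling that trims extreme genes). It takes account of counting noise alone and compares these libraries, not conditions. Mir34c was higher in replicate 1 by a log2 ratio of 1.63 ± 0.079 (counting SE; adjusted p = 1.59e-97 in the exact binomial test). Mir34b was higher there by 0.88 ± 0.36 on the log2 scale (adjusted p = 0.0356, exact binomial test), a call that was lost when genes with a single read were admitted (adjusted p = 0.0536) and when TMM factors were taken over all genes (0.0692).

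For Mir449a the log2 ratio was 0.31 ± 0.21 (adjusted p = 0.215, exact binomial test) and did not pass. Mir34a had a log2 ratio of -0.032 ± 0.021 (adjusted p = 0.203, exact binomial test). Its sign depended on the scaling: RLE size factors, another scaling by the typical gene, gave 0.043. Library totals gave -0.059 (adjusted p = 0.00935) and TMM factors over all genes gave -0.13 (adjusted p = 9.76e-10), both past the exact binomial test. Mir449b and Mir449c had too few reads to be tested.

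Thus 2 of the 4 tested members passed, both higher in replicate 1, while 52.1% of all tested genes passed. Of all tested genes 24.6% passed as higher in replicate 1 and 27.5% as higher in replicate 2. The median log2 ratio was 0.60 over the 4 members and -0.075 over 471 tested genes with reads in both libraries. An absolute log2 ratio at least as large as that of Mir34c was seen at 31 of these 471 genes (6.58%). When edgeR's exact test allowed for a common spread, with a biological coefficient of variation of 0.351 estimated from the same libraries, 0 of the 4 members passed, against 0.424% of the 472 genes. Mir34c then had an adjusted p of 0.803 in edgeR's exact test. It was the 1 member with an unadjusted p under 0.05 in that test, a share not counted over all genes.

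**Figure D3:**
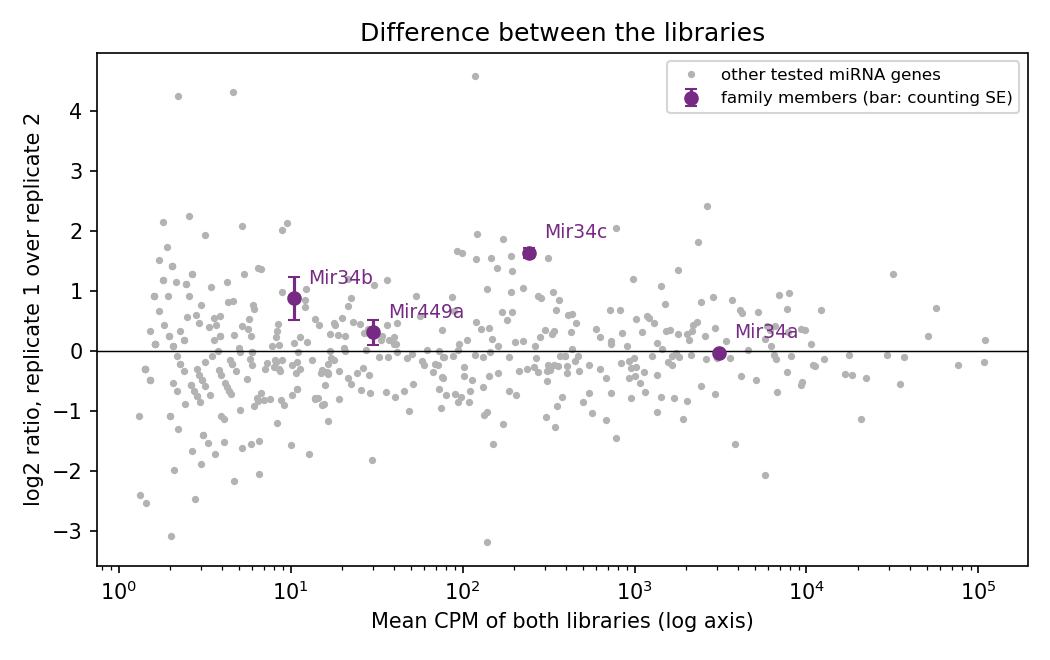
Log2 ratio of replicate 1 over replicate 2 against mean CPM (log axis) for the tested miRNA genes with reads in both libraries, in grey, and for the 4 tested members, in purple with counting SE. Mir34c lies at 1.63 and Mir34a at -0.032, near the line of equal level.

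From a list of 9, miRNA genes outside the family that p53 induces, or whose maturation it promotes, were read beside Mir34a. Mir143, a miRNA of smooth muscle, had the highest mean level, with 10428 and 5447 CPM in replicates 1 and 2. Mir107, which lies in the pantothenate kinase gene Pank1, came next at 3727 and 2024 CPM. Their log2 ratios were 0.96 ± 0.013 and 0.91 ± 0.022 (counting SE). All 9 genes had a read, and 7 had enough to be tested. Of these, 3 were higher in replicate 1 (Mir143, Mir107 and Mir145a), 1 was higher in replicate 2 (Mir15a) and 3 did not pass. These 4 of 7 (57.1%) are near the 52.1% of all tested genes that passed. In edgeR's exact test 0 of the 7 passed, against 0.424% of all tested genes, so the test passed almost no gene of any kind. Of the 7, 0 had an unadjusted p under 0.05 in that test, a share not counted over all genes. The called genes beyond the first pair are named after their values were seen.

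These 9 genes summed to 15677 CPM in replicate 1 and 9030 CPM in replicate 2. Without Mir143 the other 8 summed to 5248 and 3583 CPM. Some of the 9 belong to miRNAs with several gene copies, and for these the counts leave out reads that map to several places. The median log2 ratio of the 7 tested was 0.15. Mir34a, at a log2 ratio of -0.032, lay below that median, and the difference was not tested.

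Choroid plexus miRNAs were read beside Mir34b/Mir34c and Mir449a/b/c, from a list of 7, 5 of them within the serotonin receptor gene Htr2c, which neurons also use. Mir204, a miRNA of pigmented and choroid plexus epithelium that lies in the gene Trpm3, had 669 CPM in replicate 1 and 583 CPM in replicate 2. Mir1298 had 84.4 and 90.8 CPM. All 7 genes had a read, and the list summed to 813 CPM in replicate 1 and 742 CPM in replicate 2.

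Of the 6 choroid plexus genes tested, Mir204 was higher in replicate 1 (log2 ratio 0.23 ± 0.046, adjusted p = 2.72e-06, exact binomial test). Mir764, named after its value was seen, was higher in replicate 2 (-0.89 ± 0.33, adjusted p = 0.0116, exact binomial test), and the other 4 did not pass. The share that passed was 33.3%, against 52.1% of all tested genes. In edgeR's exact test 0 of the 6 passed, against 0.424% of all tested genes. The median log2 ratio of the 6 was -0.040. The higher sum in replicate 1 rested on Mir204, since the other 6 genes summed to 144 CPM in replicate 1 and 159 CPM in replicate 2. The part of choroid plexus tissue in the levels of Mir34c and Mir34b was not tested.

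**Figure D4:**
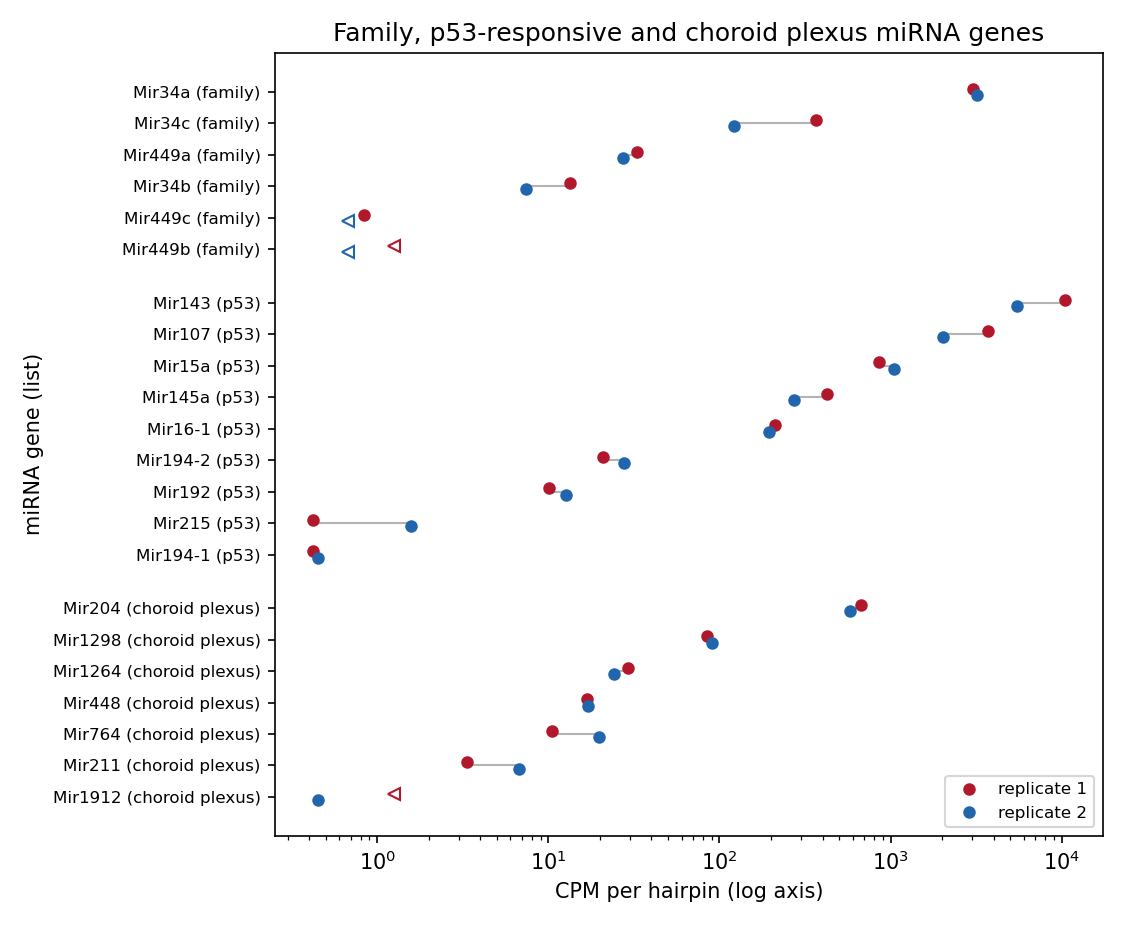
CPM per hairpin (log axis) of the family, of other p53-responsive miRNA genes and of choroid plexus miRNA genes, with replicate 1 in red and replicate 2 in blue, and open triangles at the upper limit where no read was counted. Mir34c shows the widest gap among members read in both libraries, and Mir34a the narrowest.

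Genes with the most similar levels were found by the larger of the absolute differences in log2(CPM + 1) in the 2 libraries. Nearest to Mir34a were Mir128-2, a gene of a neuronal miRNA that has a further copy at Mir128-1, and Mir30e (0.23). Mir128-2 had 2869 and 3185 CPM in replicates 1 and 2 (difference 0.087), from reads placed at that copy alone. Mir34c lay nearest to Mir27a (0.30) and Mir136 (0.36). Both were higher in CPM in replicate 1, which follows from choosing them by level in both libraries. The nearest genes to Mir449a were Mir33 (0.13) and Mir1264 of the Htr2c gene (0.17), with levels of 29.4 and 24.3 CPM in replicates 1 and 2. For Mir34b they were Mir190b (0.041) and Mir3069 (0.21). With 2 libraries this likeness is one of level and describes these samples alone.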

How the data were processed

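The deposited files, 1 per library, list counts as whole reads for each miRNA gene, without normalization by the authors. The notes deposited beside the tables give mm10 and GENCODE M21. No aligner, counter or trimming step is given in the sources used here. Counts on the gene's strand were used, which was inferred from the values. Summary lines (multimapping, unmapped and other unassigned reads), 70.4% of reads in replicate 1 and 63.8% in replicate 2, were kept out of totals and tests. All 2202 identifiers matched GENCODE M21.

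Counts were scaled to CPM. TMM and RLE factors came from edgeR 4.0.16 (R 4.3.3) over the genes tested, with TMM factors of 0.990 and 1.01 for replicates 1 and 2. The exact binomial test, adjusted by Benjamini-Hochberg with a threshold of 0.05, covered every gene whose reads summed to at least 10. With 1 group no quasi-likelihood test was possible. The test was tested on simulated data with counting noise alone. These lack the further spread seen between the libraries, so they do not show how the test behaves under it. Intervals are 95% exact. Python 3.11.15 with scipy 1.17.1 was used.

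Named are all members, the 2 genes nearest in level to each member that reached 10 reads per library, the 2 most abundant genes of each list and, after their values were seen, the miR-124 genes and called genes of 2 lists. The rule for members uses symbols alone, but the family and lists were proposed with earlier results of these data known. Alternatives covered strand, scaling, read minimum, hairpin length, dispersion and each library alone.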

Additional observations from a re-analysis of the deposited data

How the results depend on the processing

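The share of family reads from Mir34a was 88.0% to 95.3% with either library left out, and the family level was 3332 to 3464 CPM. The family level was 1117 CPM when scaled to all reads listed and 3713 CPM with both strands counted together, where the total itself differs. The log2 ratio of Mir34a turned to 0.043 with RLE size factors (adjusted p = 0.0728), and it passed the exact binomial test with library totals (-0.059) and with TMM factors over all genes (-0.13, adjusted p = 9.76e-10), an alternative chosen after seeing the data. Mir34b (0.88) no longer passed with a minimum of 1 read, with TMM factors over all genes (0.78) or with edgeR's exact test (0.88), nor did Mir34c (1.63) in edgeR's exact test, whose construction adds the spread between the libraries. The members that passed numbered 3 with library totals, 1 with a minimum of 1 read and 0 with edgeR's exact test, against 2. Over all genes these settings called 247 of 472 (52.3%), 243 of 728 (33.4%) and 2 of 472, against 246. The mean level of Mir34c was 121 CPM without replicate 1 and 368 CPM without replicate 2. The minimum of 10 reads kept Mir449b and Mir449c out of the test. No paired analysis was possible because there is 1 group.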
